A study of Rattus norvegicus with 6 samples.

Results

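Reabsorption of filtered protein in the kidney was described through 8 genes, all 8 present among the 17051 genes in the files of 6 rats. They are the receptor genes Lrp2, Cubn and Amn, the adaptor and chaperone genes Dab2 and Lrpap1, the recycling receptor gene Fcgrt, and the carrier genes Rbp4 and Ttr. They were selected by symbol from this pathway, with earlier diet results in these rats known. Their differences between the diets are therefore given as a description. Kidney tissue came from male Sprague Dawley rats with normal liver function, and their ages were not given in the sources used here. The 3 rats of the AL group (rats 61, 71 and 88) ate standard laboratory chow ad libitum (normal diet). The 3 rats of the HD group (rats 64, 67 and 69) ate the hyperammonemic diet, which was chow mixed with amino acids in the proportions of hemoglobin at a daily dose of 3 g per kg. Both diets were given for 7 days.

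Proximal tubule cells take back protein that passes the glomerular filter by endocytosis from the tubular fluid. Lrp2 encodes megalin and Cubn encodes cubilin, large receptors of the apical membrane that bind many filtered proteins. Cubilin has no membrane anchor of its own and is carried by amnionless, the product of Amn. Dab2 encodes an adaptor that links the tail of megalin to the clathrin coat, and Lrpap1 encodes a chaperone that protects megalin in the endoplasmic reticulum. Fcgrt encodes the neonatal Fc receptor, which binds albumin and IgG inside the cell and returns them from degradation. Rbp4 encodes the retinol carrier of plasma, and Ttr encodes transthyretin, which binds that carrier and limits its filtration.

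The sequence upstream of the annotated gene start is shown for Lrp2 and Cubn, whose products bind filtered ligands, and for Rbp4, the member that varied most between rats. Each line holds 250 bases on the gene's own strand, 5′ to 3′, from RefSeq on build GRCr8. The windows are chr3:74754536-74754785 for Lrp2, chr17:81501695-81501944 for Cubn and chr1:245313552-245313801 for Rbp4, all on the minus strand. Capitals mark matches to the letters TATAAA of the TATA box on the gene's strand, to the letters GGGCGG of the GC box on either strand, or to CAAAGTNCA, a core of sites for the factor HNF4, on either strand. The letters CCAAT were searched on both strands too, and so was GTTAAT, a half-site of the factor HNF1.
Lrp2: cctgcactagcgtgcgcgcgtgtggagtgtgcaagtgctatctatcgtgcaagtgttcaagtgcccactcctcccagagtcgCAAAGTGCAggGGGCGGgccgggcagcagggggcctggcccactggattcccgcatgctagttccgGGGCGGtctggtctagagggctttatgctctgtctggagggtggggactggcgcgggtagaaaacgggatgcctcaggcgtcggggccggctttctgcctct
Cubn: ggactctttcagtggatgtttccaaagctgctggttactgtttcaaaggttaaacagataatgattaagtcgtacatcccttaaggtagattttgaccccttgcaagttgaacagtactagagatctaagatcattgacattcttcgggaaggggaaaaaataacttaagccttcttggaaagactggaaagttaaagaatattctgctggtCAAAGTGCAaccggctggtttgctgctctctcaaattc
Rbp4: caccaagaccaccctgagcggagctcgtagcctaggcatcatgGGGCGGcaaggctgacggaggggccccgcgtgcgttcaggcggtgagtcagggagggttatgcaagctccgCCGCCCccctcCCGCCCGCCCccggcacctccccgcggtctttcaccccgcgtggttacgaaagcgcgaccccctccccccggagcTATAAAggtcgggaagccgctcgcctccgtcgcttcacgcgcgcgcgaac

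The Lrp2 and Cubn windows each held 1 match to CAAAGTNCA, which began 168 and 38 bases before the start. This sequence was found in 1.06% of the 33469 upstream windows of the same length, and it was added to the search after the 8 sequences had been seen. The Rbp4 window held TATAAA from 50 bases before the start, a sequence found in 8.06% of windows, and 4 matches to GGGCGG, of which 2 overlap. The GC box letters were found in 30.5% of windows and those of CCAAT in 34.0%. GTTAAT was found in 6.45% of windows and in none of those of the 8 members. All 8 members were matched to an upstream window. Among the other 5 members, Amn held 2 matches to GGGCGG, Lrpap1 held 4 and Dab2 held 1 match to CCAAT, whereas Fcgrt and Ttr had none of these letters. The G and C content was 64.4% for Lrp2, 40.0% for Cubn and 70.8% for Rbp4, against a median of 51.2% over all windows.

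The reads were counted with RSEM, and the estimated counts of a rat summed to between 12499945 and 30466461. Counts were normalized by edgeR's TMM method and are given as CPM, counts scaled to a common library size. Of the 17051 genes, 11553 reached 30 counts in some rat and were tested. A single transcript was listed for each member, so no isoforms could be compared. The tissue label was checked against 10 proximal tubule markers. Aqp1, the water channel, lay between 3791 and 4754 CPM, and Ggt1, a brush border enzyme, between 2089 and 2587 CPM. The glucose transporter gene Slc5a2 had at most 2.15 CPM in any rat, the lactate transporter gene Slc5a12 at most 0.679 and the bicarbonate transporter gene Slc4a4 at most 5.43. These 3 markers were thus close to 0 in every rat, and whether the rn5 gene models cover them was not tested.

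Levels between genes were compared per transcript length, as TPM, which divides each count by the length of the transcript. Over the 6 rats, Lrpap1 was the highest member with 764 ± 56.3 TPM (SD, *n* = 6) and was above every other member in every rat. Rbp4 followed with 289 ± 119 TPM (SD, *n* = 6), then Lrp2 with 221 ± 22.5, Amn with 188 ± 21.4 and Fcgrt with 145 ± 8.66. Dab2 was at 71.8 ± 19.4 TPM and Cubn at 48.0 ± 4.87 (SD, *n* = 6 each). The ranges of neighbors in this order overlapped for Rbp4 and Lrp2, Lrp2 and Amn, Amn and Fcgrt, and Dab2 and Cubn. Even so, Lrp2 was above Amn, Amn above Fcgrt and Dab2 above Cubn within each of the 6 rats, whereas Rbp4 was above Lrp2 in 4 rats. Among all 17051 genes, Lrpap1 lay at percentile 98.6, Rbp4 at 96.4 and Lrp2 at 95.6 of the mean TPM.

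**Figure D1:**
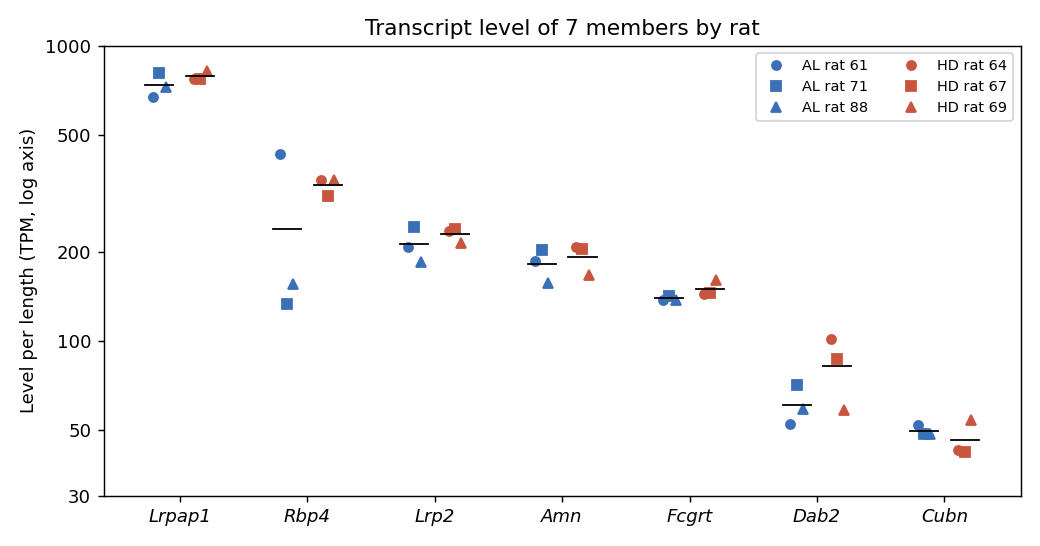
Level per transcript length (TPM, log axis) of 7 members, ordered by their mean over 6 rats. Each symbol is 1 rat, blue for AL and red for HD, and black lines are group means. Lrpap1 stands above all other members in every rat, and Rbp4 spreads from 134 to 431 TPM within the AL group.

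Transthyretin transcripts were close to absent. The gene spans 15307564 to 15314777 on chromosome 18 of build rn5, in 4 exons. Its counts were 0 in rat 61, 2 in rat 71 and 1 in rat 88, all AL. Among HD rats they were 0 in rat 64, 2 in rat 67 and 7 in rat 69. The sum over the 6 rats was 12 counts. A count of 0 allows up to 3 counts, for counting error only. With library size alone, without TMM normalization, these are 0.227 CPM in rat 61 and 0.240 in rat 64. Ttr did not reach the minimum count and was not tested, so 7 of the 8 members were tested.

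The receptors of the apical membrane differed little between the diets. Lrp2, with 79 exons on chromosome 3 of rn5 between 62271279 and 62434959, was at 2262 CPM in rat 61, 2199.9 in rat 71 and 1791 in rat 88 on the AL diet. On the HD diet it was at 2483 CPM in rat 64, 2570.2 in rat 67 and 2082 in rat 69. The groups overlapped, since rat 69 lay below 2 rats of the AL group. From edgeR's quasi-likelihood fit, the log2 fold change (HD over AL) was 0.19 (SE, the standard error, 0.16), with a 95% interval from -0.18 to 0.56. It was 0.10 without rat 88, 0.28 without rat 69 and 0.11 with library size alone. A rise above 1.47-fold or a fall to below 0.884-fold lies outside the interval.

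Cubn, with 68 exons on chromosome 17 from 82205509 to 82425565, was at 415, 322 and 343 CPM in rats 61, 71 and 88. In rats 64, 67 and 69 it was at 331, 331 and 384 CPM. The highest value belonged to the AL group and the lowest did as well, so the HD rats lay within the AL range under TMM normalization. With library size alone, rats 64 and 67 (312 and 315 CPM) lay below every AL rat, the lowest of which was at 353. By TPM, rats 64 and 67 (42.7 and 42.1) were again below every AL rat, and rat 69 (54.1) was above them. The fitted log2 fold change was -0.05 (SE 0.14, 95% interval from -0.37 to 0.28). Without rat 61 it was 0.07, so the direction of Cubn rested on this rat.

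Amn, with 12 exons on chromosome 6 from 144682580 to 144690020, was at 226, 205 and 169.7 CPM in rats 61, 71 and 88. It was at 244, 245 and 180.3 CPM in rats 64, 67 and 69. The order of the rats was close to that of Lrp2, with rats 88 and 69 lowest in their groups for both genes. For Amn the log2 fold change was 0.16 (SE 0.17, 95% interval from -0.23 to 0.55). It was 0.06 without rat 88, 0.30 without rat 69 and 0.07 with library size alone.

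The ratio of Amn to Lrp2 within a rat, computed from TPM, ranged only from 0.776 to 0.895 over the 6 rats. The ratio of Amn to Cubn, the partners of the cubilin complex, ranged from 3.09 to 4.87. Both extremes of this ratio were in the HD group, with 4.86 in rat 64, 4.87 in rat 67 and 3.09 in rat 69. In the AL group it was 3.58 in rat 61, 4.19 in rat 71 and 3.26 in rat 88. Lrp2 and Amn were the closest of all pairs of members across the 6 rats. The root mean square difference of their log2 levels, each centered on its mean, was 0.066, against 0.235 for Lrp2 and Cubn. Lrpap1 and Fcgrt were the next closest with 0.068, and Rbp4 differed from each of the other 6 tested members by 0.615 or more. This measure grows with a gene's own spread over the rats, which was widest for Rbp4 and narrow for Lrpap1 and Fcgrt.

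Dab2, the endocytic adaptor, had the highest fitted fold of the 7 tested members. With 14 exons on chromosome 2 from 75489438 to 75510929, it was at 115, 131 and 116 CPM in rats 61, 71 and 88. It was at 219, 189.9 and 115 CPM in rats 64, 67 and 69. Rats 64 and 67 lay above every rat of the AL group. Under TMM normalization rat 69 lay below all AL rats, by a narrow margin (114.6 CPM against 115.3 in rat 61). With library size alone rat 69 was above rat 61 (118 against 110 CPM), as it was by TPM (58.4 against 52.4). The log2 fold change was 0.53 (SE 0.23), with a 95% interval from -0.00058 to 1.06. It ranged from 0.33 without rat 64 to 0.77 without rat 69. The ratio of Dab2 to Lrp2 by TPM was 0.434 in rat 64 and 0.364 in rat 67, and between 0.251 and 0.319 in the other 4 rats.

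Lrpap1, the chaperone of megalin, varied little between rats of the same diet. It has 8 exons on chromosome 14 from 81599969 to 81611978 and was at 648, 651 and 624 CPM in rats 61, 71 and 88. In rats 64, 67 and 69 it was at 728, 737 and 710.0 CPM. Every rat of the HD group lay above every rat of the AL group. Its log2 fold change was 0.18 (SE 0.11, 95% interval from -0.07 to 0.43). The SD of its log2 level within groups was 0.030, lower than in all but 0.147% of the tested genes, for which the median was 0.218. With library size alone it was 0.081, and 6.06% of the genes were lower. With library size alone, rat 71 of the AL group (713 CPM) was above rats 64 (686) and 67 (699), so the separation depended on the normalization.

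Fcgrt, the recycling receptor of albumin and IgG, has 6 exons on chromosome 1 from 102151857 to 102161139. It was at 147, 126 and 131 CPM in rats 61, 71 and 88 and at 149.8, 153 and 153 CPM in rats 64, 67 and 69. The HD rats were again above the AL rats, by a narrow margin over rat 61, and they were so with library size alone and by TPM too. For Fcgrt the log2 fold change was 0.18 (SE 0.10, 95% interval from -0.07 to 0.42). The SD of its log2 level was 0.018 in the HD group, below that of all but 0.926% of tested genes. With library size alone it was 0.081, and 14.2% of the genes were lower.

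Of the 7 tested members, 2 (Lrpap1 and Fcgrt) had every HD rat above every AL rat, and 0 had every HD rat below. Among all tested genes the groups were separated in this way upward in 7.25% and downward in 7.01%. No member reached an adjusted *P* of 0.05 or a nominal (unadjusted) *P* below 0.05 in edgeR's test, for which the share of all tested genes was 0% and 10.6%. The adjusted *P* values of the members from edgeR ranged from 0.471 for Dab2 to 0.951 for Cubn. DESeq2 called 1.58% of all tested genes and 0 of the members, with adjusted *P* values from 0.342 to 0.989. The members had a median log2 fold change of 0.18, against 0.0067 over all tested genes. Of the 7, 6 were above 0, as were 5928 of the 11553 tested genes.

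**Figure D2:**
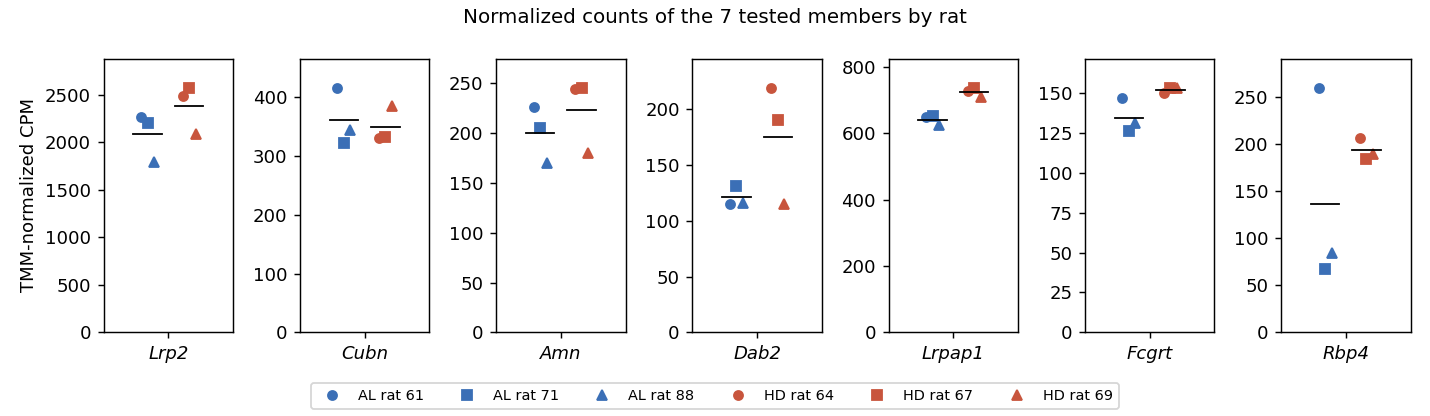
TMM-normalized CPM of the 7 tested members in each of the 6 rats, with 1 panel and 1 linear axis from 0 per gene. Blue symbols are AL rats, red symbols are HD rats and black lines are group means of 3 rats. The groups do not overlap for Lrpap1 and Fcgrt, and AL rats 71 and 88 stand far below rat 61 for Rbp4.

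**Figure D3:**
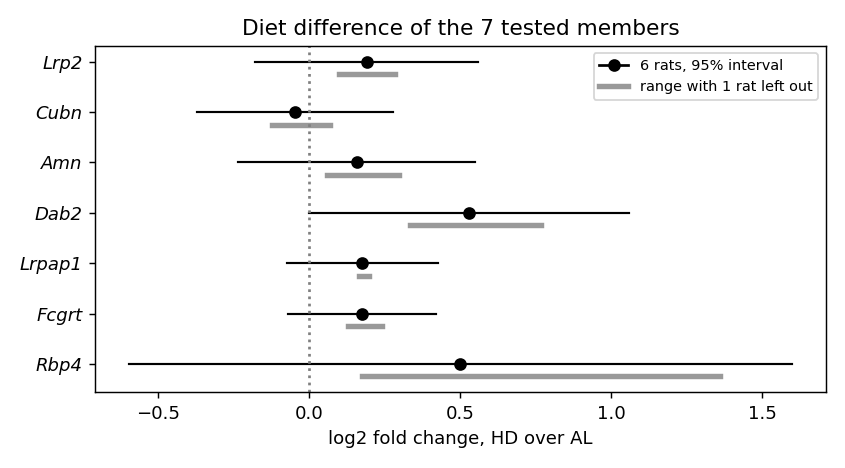
Log2 fold change (HD over AL) of the 7 tested members from edgeR's fit to 6 rats, as black points with 95% intervals. Gray bars give the range of the fitted value when each rat was left out in turn. All 7 intervals include 0, and the gray bar of Rbp4 runs from 0.17 to 1.36.

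Rbp4, the retinol carrier, differed more between rats of the AL group than any other tested member, but not between rats of the HD group. The gene spans 264286998 to 264294200 on chromosome 1 of build rn5, in 6 exons. In the AL group it was at 259.6 CPM in rat 61, 67.0 in rat 71 and 83.8 in rat 88. In the HD group it was at 206, 185 and 189 CPM in rats 64, 67 and 69. The HD rats were close to each other and lay between rat 61 on the upper side and rats 71 and 88 on the lower side. The mean was 137 ± 107 CPM for AL and 193 ± 11.4 for HD (SD, *n* = 3 each). The SD of the log2 level was 1.04 in the AL group, at percentile 98.0 of the tested genes, and 0.084 in the HD group, at percentile 14.4.

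The log2 fold change of Rbp4 was 0.50 (SE 0.47, 95% interval from -0.60 to 1.60). Without rat 61 it was 1.36 (adjusted *P* = 0.0975 from edgeR), and without rat 71 it was 0.17. The lowest count of Rbp4 was 1208, in rat 71. By TPM, the ratio of Rbp4 to Lrp2 was 2.06 in rat 61, 0.548 in rat 71 and 0.842 in rat 88, and it was 1.49, 1.29 and 1.64 in rats 64, 67 and 69.

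Hepatocytes and adipocytes are known sources of Rbp4, and their markers were examined beside it. Of 7 hepatocyte markers, 4 passed the minimum count. The sum of the list was 331 CPM in rat 61, and between 128 and 242 CPM in the other 5 rats. Most of it came from Tf, which encodes transferrin, with 292 CPM in rat 61, while Alb, which encodes albumin, had at most 1.79 CPM. All 5 adipocyte markers were tested, and their sum was 103 CPM in rat 61, 44.9 in rat 71 and 54.6 in rat 88. In rats 64, 67 and 69 the sum was 24.9, 269.7 and 206 CPM. In bulk tissue, fewer cells of a type and less RNA per cell cannot be told apart.

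Macrophage markers, by contrast, were highest where Rbp4 was lowest. Their sum was 401 CPM in rat 71, 267 in rat 88 and 111 in rat 61, and 40.3, 52.9 and 91.9 CPM in rats 64, 67 and 69. Lyz2, which encodes lysozyme, made up most of it, and Cd163 had at most 0.333 CPM in any rat. Of the 5 listed markers 4 were tested, and Lyz2 and Csf1r (the receptor of a macrophage growth factor) had a nominal *P* below 0.05, both lower in the HD group. Endothelial markers, all 4 tested, were at 170 CPM in rat 71, 189 in rat 88 and 74.0 in rat 61, with 52.7, 86.8 and 172 CPM in rats 64, 67 and 69. Their part in the values of Rbp4 was not tested.

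The 3 genes whose levels followed Rbp4 most closely over the 6 rats were Maff, Sorcs2 and Olr1668. The root mean square difference of the centered log2 levels was 0.155 for Maff, 0.171 for Sorcs2 and 0.179 for Olr1668, out of 8169 genes with a mean of at least 10 CPM. Maff, which encodes a small Maf transcription factor, was at 83.6, 23.1 and 31.4 CPM in rats 61, 71 and 88 and at 75.1, 65.4 and 51.4 in rats 64, 67 and 69. For Lrp2 the nearest of the same 8169 genes were Vps37a, Ppa1 and Oxct1, with 0.018, 0.045 and 0.047. Vps37a takes part in endosomal sorting, Ppa1 is a pyrophosphatase and Oxct1 an enzyme of ketone body use. The measure grows with a gene's own spread, and the SD of the log2 level within groups was 0.740 for Rbp4 and 0.174 for Lrp2. The distances around Rbp4 and around Lrp2 therefore cannot be compared.

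The proximal tubule markers were themselves higher in the HD group. Of the 10 listed, 9 were tested and all 9 were above 0 on the log2 scale, with a median of 0.46, and so were the 7 left without Slc5a2 and Slc4a4. At a nominal *P* below 0.05 there were 5 (Slc34a1, Slc22a6, Slc4a4, Fbp1 and Hnf4a), and none reached 0.05 after adjustment in edgeR, whereas DESeq2 called 2 (Slc22a6 and Slc4a4, adjusted *P* 0.003 and 0.0112). Slc34a1, the phosphate transporter gene, was at 2268, 1618 and 1366 CPM in rats 61, 71 and 88 and at 3518, 2649 and 2389 in rats 64, 67 and 69. Slc22a6, the gene of an organic anion transporter, differed by 1.07 on the log2 scale (SE 0.24), and its edgeR adjusted *P* was 0.368. Hnf4a, a transcription factor of the proximal tubule, had 0.33 (SE 0.12, adjusted *P* = 0.409), and Fbp1, an enzyme of gluconeogenesis, had 0.46 (SE 0.19). Aqp1 and Ggt1, the most abundant of these genes, had 0.22 and 0.24 (SEs 0.13 and 0.12).

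The summed CPM of the 10 proximal tubule markers was 10228 in rat 61, 9091 in rat 71 and 9014 in rat 88, and 13174, 11994 and 11700.4 in rats 64, 67 and 69. The members were therefore also expressed per 1000 CPM of this sum, a scaling chosen after seeing the data. On it, Lrp2 was at 221 ± 21.7 for AL and 194 ± 18.7 for HD (SD, *n* = 3 each), a log2 difference of -0.19. Because the sum was higher in every HD rat, this division shifted the log2 difference of every gene by -0.38, and a gene between 0 and 0.38 turned its sign by construction. Lrp2, Amn, Lrpap1 and Fcgrt were among these. On this scale 43.9% of all tested genes had every HD rat below every AL rat and 0.961% had every HD rat above, so nothing particular to the members is read from it. Cubn, Lrpap1 and Fcgrt had every HD rat below, and no member had every HD rat above. Library size alone kept the direction of all 7 members, although the median over all tested genes was then -0.074 in place of 0.0067.

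**Figure D4:**
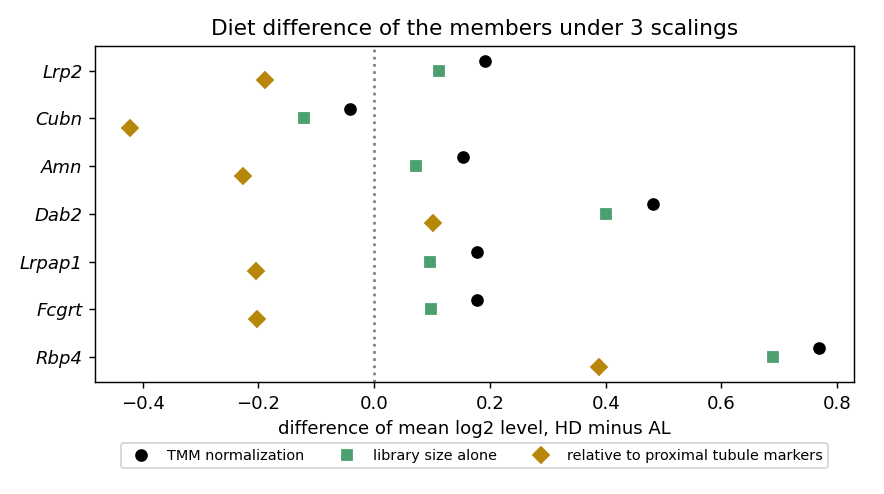
Difference of the mean log2 level (HD minus AL, 3 rats each) of the 7 tested members under TMM normalization (black), library size alone (green) and relative to the summed proximal tubule markers of the same rat (gold). No errors are drawn, and these are differences of means rather than fitted fold changes, so Rbp4 is at 0.77 under TMM normalization. The gold symbols lie 0.38 to the left of the black ones for every gene.

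The genes that carry the receptors through the cell had a list median close to that of all tested genes. The list of the endocytic apparatus held clathrin, its AP2 adaptor, Rab proteins and their partners, and all 24 genes found in the files were tested. In the HD group 19 were higher and 5 lower. Rab38, among the 19, reached the minimum count only in HD rat 69 (50 counts), so the filter favored its direction. The list's median was 0.08 on the log2 scale. It was -0.0040 with library size alone, so the direction depended on the scaling. At a nominal *P* below 0.05 there was 1, Ap2a2, a subunit of AP2, against 10.6% of all tested genes. It was at 167, 181 and 142 CPM in rats 61, 71 and 88 and at 215, 195 and 221 in rats 64, 67 and 69. The groups did not overlap under TMM normalization but did with library size alone (198 CPM in rat 71 and 185 in rat 67) and by TPM. Ap2a2 had a fitted difference of 0.36 (log2, SE 0.13) and an edgeR adjusted *P* of 0.406. The 2 most abundant genes, Cltc (clathrin heavy chain) and Rab7a (late endosomes), had 0.11 (SE 0.13) and 0.02 (SE 0.11). The highest fitted value of the list, chosen here after its values were seen, was 0.72 (SE 0.44) for Clcn5, an endosomal chloride and proton exchanger, at no more than 4.33 CPM.

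The other receptors of the LDL receptor family and the sorting receptors numbered 10 tested genes, of which 5 were higher and 5 lower in the HD group. The median difference was -0.06 (log2), -0.20 without rat 61, 0.0025 without rat 71 and -0.16 with library size alone, and 0 genes had a nominal *P* below 0.05. Lrp10 and Sorl1, the most abundant, had 0.17 (SE 0.14) and -0.57 (SE 0.26). Sorl1, a sorting receptor of the thick ascending limb and other cells, was at 171, 253 and 210.2 CPM in rats 61, 71 and 88 and at 90.6, 154 and 182 in rats 64, 67 and 69.

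Genes listed for filtered ligands of megalin and cubilin numbered 13 tested, 7 higher and 6 lower in the HD group. Alb, among the 7, reached the minimum count only in HD rat 69 (56.1 counts), so the filter favored its direction. Whether each product binds these receptors was not checked. The median, 0.08 on the log2 scale, was -0.0053 with library size alone and ranged from -0.17 to 0.14 with each rat left out (below 0 without rats 61, 88, 64 or 69). The transcript measured here is made in the kidney, so it does not count filtered protein. At a nominal *P* below 0.05 there was 1 (7.69% of the list, against 10.6% of all tested genes), Klk1, which encodes the tissue kallikrein made in the distal nephron. It was at 27.2, 81.5 and 47.6 CPM in rats 61, 71 and 88 and at 528, 164 and 308 in rats 64, 67 and 69. Klk1 had a log2 fold change of 2.67 (SE 0.52), with an adjusted *P* = 0.338 from edgeR, and DESeq2 gave an adjusted *P* value of 0.00497. Of the 6 markers of the loop of Henle and distal nephron, 3 had a nominal *P* below 0.05. Slc12a3, the gene of the thiazide-sensitive cotransporter, differed on the log2 scale by 2.93 (SE 0.58), Calb1, a calcium-binding protein, had 2.05 (SE 0.51) and Slc12a1 of the thick ascending limb had -0.86 (SE 0.31). The adjusted *P* values of these 3 genes from edgeR were 0.338, 0.379 and 0.409. The other 3 were at -0.12 (SE 0.18) for Umod, -0.05 (SE 0.15) for Aqp2 and 0.36 (SE 0.17) for Atp6v1b1. Sepp1, the selenium carrier, and B2m, the light chain shared by class I molecules and the receptor made by Fcgrt, were the most abundant of the list. Their log2 fold changes were 0.21 (SE 0.15) and -0.41 (SE 0.20).

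Retinoid handling, the use of the vitamin that Rbp4 carries, was covered by 15 tested genes, 5 higher and 10 lower in the HD group. Rbp2, among the 10, reached the minimum count only in AL rat 71 (31 counts), so the filter favored its direction. The list's median was -0.41 on the log2 scale. It ranged from -0.72 without rat 69 to -0.07 without rat 71. Stra6, the cell surface receptor of Rbp4, had at most 0.544 CPM and was not tested. Rarb, a retinoic acid receptor, was the 1 gene with a nominal *P* below 0.05 (6.67% of the list, against 10.6% of all tested genes). It had a fitted log2 difference of -0.65 (SE 0.25) and an edgeR adjusted *P* of 0.426. It was at 13.3, 22.2 and 18.4 CPM in rats 61, 71 and 88 and at 9.0, 11.1 and 14.2 in rats 64, 67 and 69. Rara and Rarg are the other receptors of retinoic acid. Under TMM normalization both had every HD rat below every AL rat, as had 7.01% of all tested genes. This was not so with library size alone or by TPM. Their log2 fold changes were -0.29 (SE 0.14) and -0.51 (SE 0.26). Aldh1a1, which makes retinoic acid from retinal, was the most abundant with 0.55 (SE 0.24), and 0.22 without rat 64.

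Markers of other cells were examined beside these lists. The 5 podocyte markers were all higher in the HD group, 3 of them (Nphs1, Wt1 and Ptpro) at a nominal *P* below 0.05, and their sum ranged from 47.2 to 115 CPM for AL and from 126 to 277 for HD. The 6 markers of the loop of Henle and distal nephron summed to between 6184 and 6802 CPM for AL and between 5046 and 7029 for HD. The 5 blood markers summed to between 708 and 1080.2 CPM for AL and between 1017 and 1829 for HD, and Hba1 and Hba2, of hemoglobin, were higher at a nominal *P* below 0.05. Among the adipocyte markers Plin1 was higher at that value, and among the endothelial and hepatocyte markers there were 0. No gene of any list reached an adjusted *P* of 0.05 from edgeR, whereas DESeq2 called 9. These were Klk1, Slc4a4, Slc22a6, Nphs1, Wt1, Ptpro, Slc12a3, Lyz2 and Hba2. The part of these cells in the members' values was not tested.

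**Figure D5:**
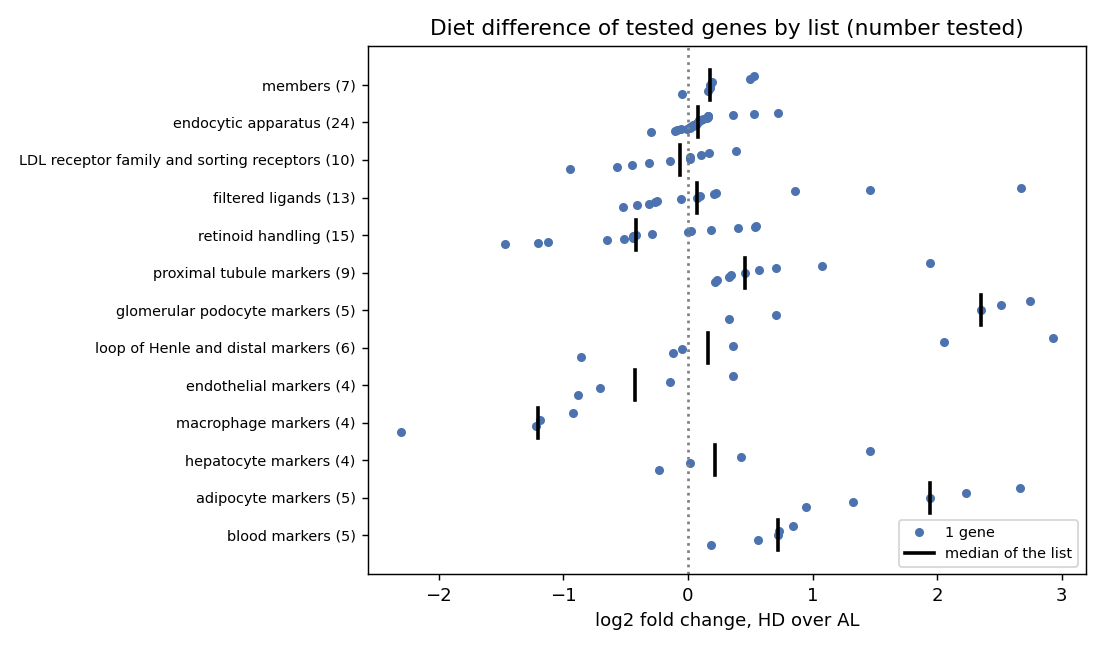
Log2 fold change (HD over AL) of each tested gene, by list, with the number tested in brackets. Points are genes and black bars are list medians. The endocytic apparatus has a median of 0.08 (-0.0040 with library size alone). The 9 proximal tubule markers lie above 0, but Slc5a2 and Slc4a4 among them reached the minimum count only in HD rats. The retinoid list has a median of -0.41 and the macrophage list of -1.21.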

How the data were processed

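Kidney RNA of 6 male rats, 3 in the AL and 3 in the HD group by the diet in the labels, was sequenced as poly(A)-selected libraries with single-end reads of 100 bases. The authors quantified transcripts with RSEM 1.1.15 and UCSC gene definitions for rn5, and deposited an estimated count (expected count) per transcript, not normalized, with a posterior mean of it. The authors also deposited TPM values, scaled to transcript length by RSEM.

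Estimated counts were summed per gene and rounded. Genes with at least 30 counts in at least 1 rat were tested with edgeR 4.0.16 (quasi-likelihood, TMM, R 4.3.3) and Benjamini-Hochberg adjustment over all of them. The SE was the absolute log2 fold change over the square root of F. Likeness between genes used log2(CPM + 0.5). DESeq2 1.42.0 and the other settings were alternatives. TPM was summed per gene. The tests were tested on simulated data first. Members and lists were chosen with earlier results of these data known. Genes named are all members, all proximal tubule markers (1 is not reported here), list genes at a nominal *P* below 0.05 or among the 2 most abundant of the pathway lists, and the 3 genes nearest to Lrp2 and Rbp4. Rarg, Alb, Tf, Cd163, Stra6, Clcn5, Rab38 and Rbp2 were named after their values were seen. Umod, Aqp2 and Atp6v1b1 were named as the rest of the loop and distal markers. Upstream sequences came from RefSeq (GRCr8) and no coordinates were moved between builds. Protein sequences were not used here.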

Additional observations from a re-analysis of the deposited data

How the results depend on the processing

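The number of genes reaching an adjusted *P* of 0.05, 0 in edgeR's test, was 182 with DESeq2 and 2 with a count above 0 in 1 rat as the filter, and between 0 and 4 when each rat was left out. The number at a nominal *P* below 0.05, 1224, ranged from 606 without rat 88 to 1744 without rat 69 and was 639 without rat 64. Among the members this number, 0, became 1 with DESeq2, with the looser filter and with posterior mean counts, each time Dab2, and between 0 and 1 with a rat left out (Rbp4 without rat 61 and Dab2 without rat 69). Over the 4 pathway lists it was 3, with 8 from DESeq2, 6 with the looser filter and between 2 and 12 with a rat left out (9 without rat 61, 5 without rat 67, 12 without rat 69). The log2 fold change of Cubn ranged from -0.12 to 0.07 with each rat left out, and the latter value (0.069) came without rat 61. Relative to the proximal tubule markers, a scaling chosen after seeing the data that lowers every gene by 0.38 on the log2 scale, the difference of mean logs was therefore -0.19 for Lrp2, -0.23 for Amn, -0.20 for Lrpap1 and -0.20 for Fcgrt. In the 12 alternatives set earlier, the other 6 members kept their direction and no member passed the adjusted threshold. Causes of these shifts were not tested. No paired analysis was possible because the rats are different animals and the labels tie none of them across the diets. With 3 rats a group, the interval of Rbp4 spans 0.661-fold to 3.03-fold. Ttr, with 12 counts summed over the 6 rats, was too low to be tested.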
